A study of Mus musculus with 4 samples.

Results

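The genes described here are the homeobox genes of differentiating C2C12 cells, which are known for giving cells their place along the body and the limb. They were chosen by symbol alone, from the Hox, Pbx, Meis, Pknox, Tgif, sine oculis, Prrx, Pitx, Shox2, Msx, Dlx, Lhx, Irx, Zeb, Zfhx, Tshz, Cux and Satb families, and every listed member was kept. The rule found 56 of the 13824 gene symbols listed. They were 20 Hox genes, 11 genes of the TALE class, 3 genes of the sine oculis family, 13 limb and mesenchyme factors, 7 zinc finger homeobox genes and 2 genes of the Cux and Satb families.

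C2C12 is a mouse myoblast line that fuses into myotubes when serum is lowered. All 4 libraries came from cells transfected with 30 nM siRNA by Lipofectamine and held in horse serum differentiation medium for 48 h. In 2 of them, called siMEF2A, the siRNA was directed against MEF2A, a transcription factor that switches on muscle genes, and in the 2 scrambled ones it had a scrambled sequence. The comparison asked what silencing MEF2A changes in differentiating myoblasts. Whether the libraries of a group were separate cultures is not stated in the labels, and each p-value therefore covers no more than the spread seen between these 4 libraries, in part or wholly technical. The cells are 1 line, silenced in part and sampled once.

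A homeobox encodes a DNA-binding fold, the homeodomain, in which the third helix lies in the major groove and reads the bases there. Hox genes lie in clusters, and their order along the cluster matches the order in which they are used along the body and the limb, with low-numbered genes towards the head and high-numbered ones towards the tail and the limb tip. TALE proteins of the Pbx, Meis and Pknox families bind DNA together with Hox proteins. Proteins of the sine oculis family act upstream of the myogenic factors, while Prrx and Shox2 proteins are known from limb mesenchyme.

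The stretch of the third helix differs between genes at several codons. In 1 of these, called the variable codon here, some families differ and others share the amino acid. The 30 bases around that codon are shown for members that the results turn on, as examples of some of the kinds. No stretch with glycine or lysine there is shown. They are read 5′ to 3′ on the coding strand of the GENCODE M21 transcripts, with the variable codon in capitals.
Hoxa10: aaaatctggtttCAGaatcgcaggatgaaa
Hoxc10: aaaatctggtttCAAaatcgcagaatgaaa
Prrx1: caggtgtggtttCAGaaccgaagagccaag
Shox2: caggtttggtttCAAaatcgaagagctaag
Meis2: aacaactggtttATCaatgccagaagaaga
Tgif1: tgtaactggttcATCaacgcccgccgcagg
Irx2: tccacctggttcGCCaacgcgcgccgacgt
Cux1: atcaactggttcCATaattacaggtctcgg

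The stretch was sought by a fixed pattern: tryptophan, phenylalanine, the variable codon, asparagine, any residue and arginine. It was found in 51 of the 56 members, and no match was found for 5, among them Tshz1, Tshz3, Zeb1 and Zeb2. A missing match says only that this pattern was not found, not that the gene lacks a homeobox. Zfhx2, Zfhx3 and Zfhx4 held 3 matches each, of which the last was read. The codon gave glutamine in 31 members, among them all 20 Hox genes and the Prrx, Shox2, Dlx, Msx, Lhx and Zfhx genes. It gave isoleucine in the 7 Meis, Pknox and Tgif genes and glycine in the 4 Pbx genes. It gave lysine in 5 genes of the sine oculis and Pitx families, alanine in the 3 Irx genes and histidine in Cux1. The stretch of Hoxa10 lies at chr6:52232569-52232598 on the minus strand, that of Hoxc10 at chr15:102970983-102971012 on the plus strand and that of Irx2 at chr13:72630805-72630834 on the plus strand, all in coding exons (build mm10). Those of Prrx1, Shox2, Meis2 and Cux1 cross an exon junction. The 30 bases of Hoxa6 and Hoxa7 were identical. The stretch was chosen for display after the values had been seen.

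Values are FPKM, which count sequenced fragments relative to transcript length and to the library's fragment total, summed over the listed transcripts of a gene. No member was at 0 in any library. The mean over the 4 libraries reached 1 FPKM, the minimum for a test, in 46 members. Msx1 lay just above it at 1.03 FPKM and Dlx2 just below it at 0.839 FPKM. Differences were tested as log2(FPKM + 1) with limma over 11824 genes and adjusted over all of them, and a call needed an adjusted p under 0.05. Log2 differences are siMEF2A minus scrambled on that scale, which understates changes of low genes.

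The silenced gene and the muscle program set the scale of the comparison. Mef2a was at 12.7 and 14.3 FPKM in siMEF2A and 25.8 and 32.2 FPKM in scrambled libraries, a log2 difference of -1.05 (SE 0.15, limma adjusted p = 3.35e-05). Myog, a myogenic transcription factor induced at the start of differentiation, was at 80.5 and 86.2 FPKM in siMEF2A and 126 and 138 FPKM in scrambled libraries (log2 difference -0.66, limma adjusted p = 0.0287). The Myog call was lost under some alternatives, among them leaving out siMEF2A replicate 1 (limma adjusted p = 0.466), siMEF2A replicate 2 (0.178) or scrambled replicate 2 (0.127). Of 12 skeletal muscle markers tested, 7 were called lower and 0 higher, where 1.32% of all genes were called lower and 0.406% higher. All 12 had a negative difference, and 11 were lower without overlap, as were 9.14% of all genes. The 13 listed markers summed to 806 to 843 FPKM in siMEF2A and 1497 to 1627 FPKM in scrambled libraries. In bulk RNA, fewer differentiated cells and less RNA per cell cannot be told apart. Fibroblast markers summed to 1152 to 1432 FPKM in siMEF2A and 865 to 1277 FPKM in scrambled libraries, with 0 of 5 tested called. The ranges of the sums overlapped, but most of each sum was Col3a1. Of the 5 tested, Pdgfra and Dcn were higher in siMEF2A without overlap, as were 18.8% of all genes. The other 3 overlapped, and Lum and Col1a1 among them had negative differences. Fap, under the minimum for a test, was higher in both siMEF2A libraries. The listed endothelial, neural and epithelial markers each summed to less than 1 FPKM in every library. The 2 cardiac markers summed to 1.09 to 1.53 FPKM in siMEF2A and 1.32 to 1.44 FPKM in scrambled libraries. The 3 macrophage and leukocyte markers summed to 19.0 to 20.3 FPKM in siMEF2A and 16.0 to 18.2 FPKM in scrambled libraries, nearly all of it Cd14. The 3 adipocyte markers summed to 7.98 to 8.66 FPKM in siMEF2A and 7.78 to 8.49 FPKM in scrambled libraries. Relative depth against scrambled replicate 1 was read as the commonest ratio of low values. It was 0.849 in siMEF2A replicate 1, 0.848 in siMEF2A replicate 2 and 1.05 in scrambled replicate 2. The median of the same ratios was 1.08, 1.02 and 1.03 in that order, so relative depth is uncertain. The absolute depth is unknown.

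Against that background, no homeobox gene passed the test. Of the 46 members tested, 0 were called higher and 0 lower in siMEF2A by limma, where 0.406% of all genes tested were called higher and 1.32% lower (1.73% in either direction). At an unadjusted p under 0.05, 2 members were higher, Irx2 and Prrx1, and 0 were lower, where 3.09% of all genes were higher and 3.3% lower (6.39% in either direction). At the rates of all genes, a list of this length would hold few or no calls, so the count of 0 does not set the homeobox genes apart. With each listed transcript as its own feature, a fit chosen after the values had been seen, 93 homeobox transcripts were tested and 0 were called higher and 0 lower. Of all 23600 transcripts tested, 0.0297% were called higher and 0.195% lower (0.225% in either direction). Counts of calls depended on the fit: limma with robust moderation called 1 member higher, and blocking on the replicate number called 2.

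The intervals say how large a difference the libraries could hide. The 95% interval of the difference lay within 1.5-fold of FPKM + 1 either way in 43 of the 46 members. It did so in 88.9% of all genes tested. It lay within 2-fold of FPKM + 1 in all 46. These bounds are on FPKM + 1, so in FPKM the intervals of low genes reach further, that of Irx2 among them. Irx2 and Prrx1 were among the exceptions to the 1.5-fold bound. The log2 differences ran between -0.23 for Pknox2, a TALE gene, and 0.52 for Irx2. Their median was 0.07, beside 0.04 over all genes tested. The difference was positive in 30 of 46 members (65.2%), where it was so in 63.9% of all genes. Under median-ratio scaling, which moved the median of all genes to about 0, 25 of 46 members were positive (54.3%), beside 48.8% of all genes. In 34 of 46 members the larger gap between replicates of a group exceeded the gap between group means, as it did in 82.2% of all genes.

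**Figure D1:**
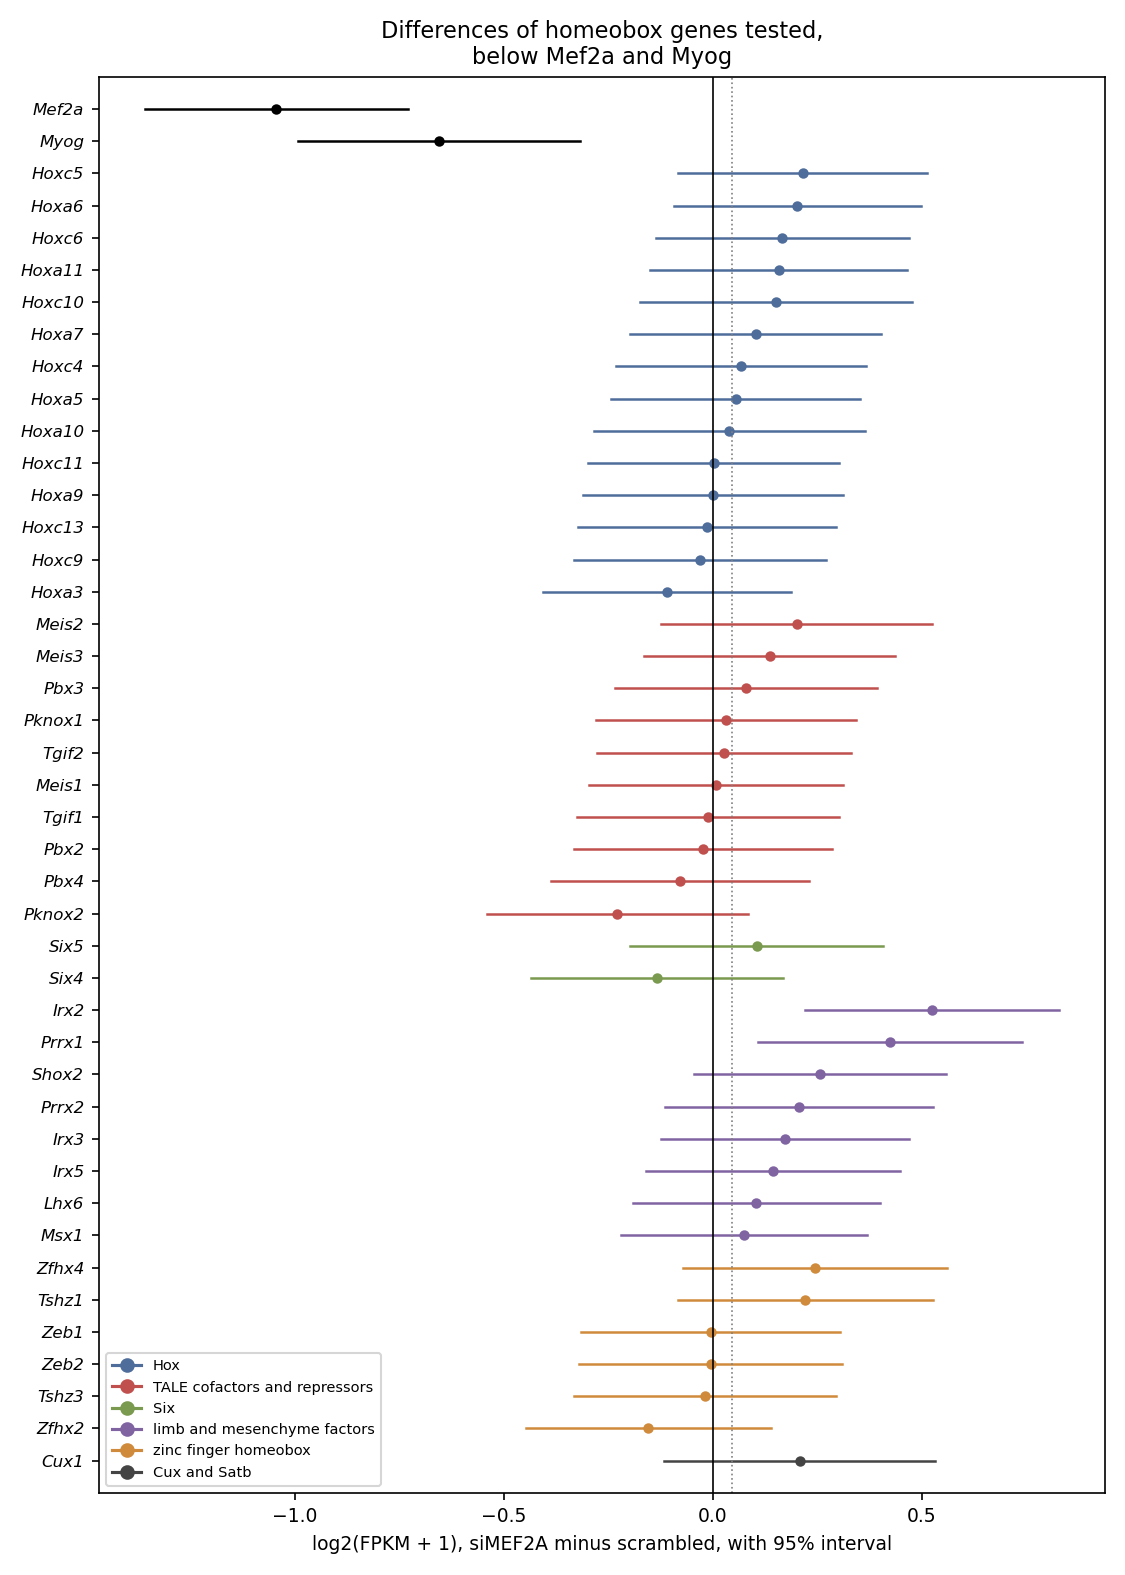
Log2(FPKM + 1) difference, siMEF2A minus scrambled, with its 95% interval, for Mef2a, Myog and the homeobox genes tested, coloured by role, with a few genes not shown. Mef2a at -1.05 and Myog at -0.66 lie left of 0, and the homeobox genes lie between -0.23 and 0.52, most with intervals that cross 0.

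Among the Hox genes, those of the middle and high paralogue groups led. Listed were 11 genes of the HoxA cluster on chromosome 6 and 9 of the HoxC cluster on chromosome 15. The rule also covered the HoxB and HoxD clusters, but no gene of theirs was listed. How transcripts came to be listed is not given, so their level is unknown. Hoxa10, which patterns the lumbar trunk and the upper hindlimb, was at 68.7 and 60.9 FPKM in siMEF2A and 65.4 and 60.5 FPKM in scrambled libraries. It was the highest Hox gene in all 4 libraries, and its groups overlapped (log2 difference 0.04, 95% interval -0.28 to 0.36, limma adjusted p = 1.0).

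Hoxa9 was at 31.1 and 31.0 FPKM in siMEF2A and 33.7 and 28.7 FPKM in scrambled libraries. Hoxc10 was at 28.7 and 34.6 FPKM in siMEF2A and 25.0 and 31.9 FPKM in scrambled libraries. Both are posterior Hox genes, and their ranges overlapped each other, so that their order is not resolved. Hoxc6, a gene of the thoracic region, followed with 23.9 and 23.6 FPKM in siMEF2A and 20.6 and 21.6 FPKM in scrambled libraries. Its groups did not overlap (log2 difference 0.17, limma adjusted p = 1.0).

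Hoxa11, needed for the forearm and lower leg together with its paralogues, was at 15.6 and 17.2 FPKM in siMEF2A and 13.6 and 15.7 FPKM in scrambled libraries. Hoxc11 was at 14.3 and 15.2 FPKM in siMEF2A and 14.8 and 14.6 FPKM in scrambled libraries, a range that overlapped that of Hoxa11. Hoxa7 was the last gene near 10, at 9.19 and 9.95 FPKM in siMEF2A and 8.71 and 8.98 FPKM in scrambled libraries. Below it the order was less clear, since the ranges of Hoxc13 and Hoxc9 and of Hoxc9 and Hoxc5 overlapped. Those genes, with Hoxc4, Hoxa5, Hoxa6 and Hoxa3, had means between 1.63 and 4.48 FPKM.

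Other Hox genes were at the edge of what was listed. Hoxa13, a gene of the limb tip, was at 0.228 and 0.265 FPKM in siMEF2A and 0.176 and 0.479 FPKM in scrambled libraries. Hoxa4, Hoxc12, Hoxa2 and Hoxc8 had means of 0.331, 0.522, 0.604 and 0.629 FPKM, and these 5 genes were not tested. Hoxc8 lay between Hoxc6 and Hoxc9 in the cluster, both at several times its level. It was at 0.572 and 0.539 FPKM in siMEF2A and 0.754 and 0.650 FPKM in scrambled libraries, lower in both siMEF2A libraries.

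**Figure D2:**
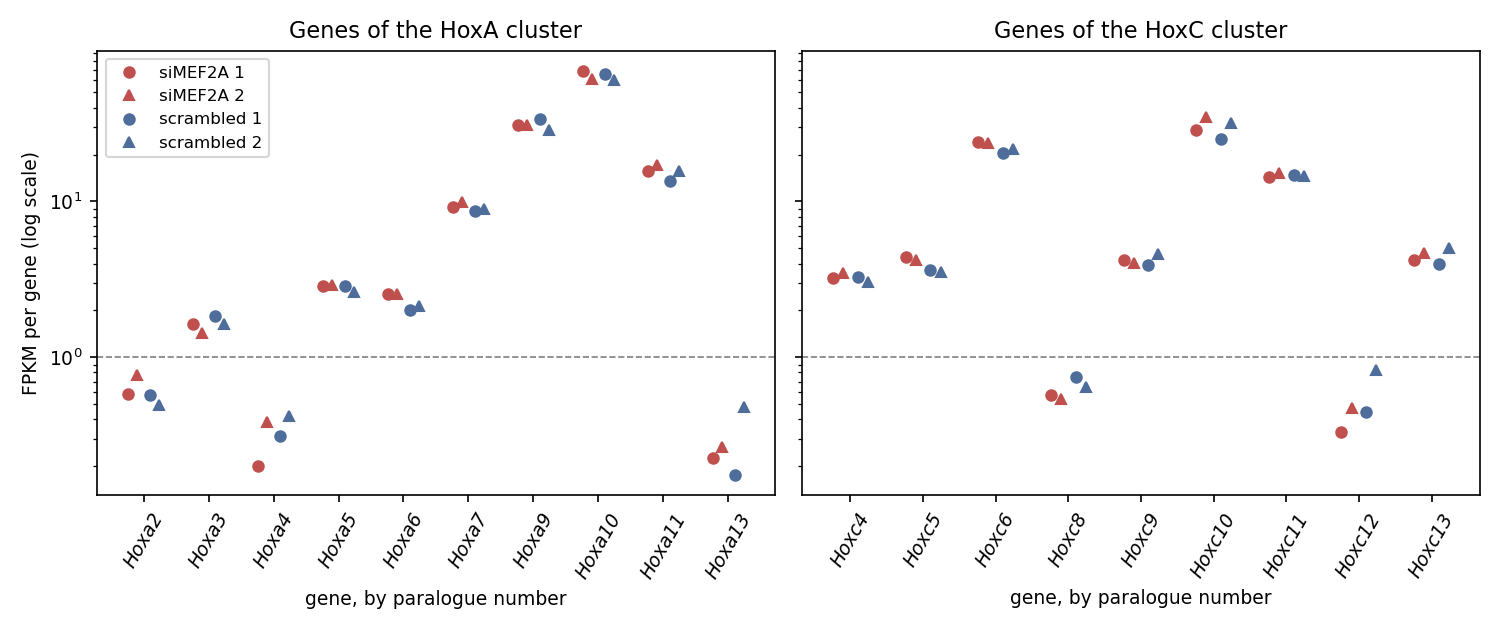
FPKM per gene on a log scale for listed HoxA and HoxC genes in order of paralogue number, siMEF2A left of scrambled, 1 point for each library and a dashed line at 1 FPKM, the minimum mean for a test. Hoxa10 is highest in each library, Hoxa9, Hoxc10 and Hoxc6 follow, and the points of both groups lie close together at nearly every gene.

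The balance along the clusters was nearly the same in both groups. Paralogue groups 9 to 11 made up 74.6% and 74.2% of the summed HoxA and HoxC FPKM in siMEF2A and 75.5% and 74.7% in scrambled libraries. Within HoxA they made up 86.1% and 84.7% in siMEF2A and 86.2% and 85.2% in scrambled libraries. Within HoxC they made up 56.3% and 59.3% in siMEF2A and 57.3% and 59.6% in scrambled libraries. The HoxC share was thus lower than the HoxA share in every library, with Hoxc6 holding much of the remainder. These shares come from FPKM and therefore compare genes per length. They were not tested.

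Of the 15 Hox genes tested, 5 had siMEF2A values above both scrambled values (Hoxa5, Hoxa6, Hoxa7, Hoxc5 and Hoxc6) and 1 had them below (Hoxa3). Over all genes tested, 18.8% were higher without overlap and 9.14% lower. The largest of these Hox differences was that of Hoxc5, at 4.41 and 4.19 FPKM in siMEF2A and 3.61 and 3.51 FPKM in scrambled libraries (log2 difference 0.21, limma adjusted p = 1.0). Its protein-coding transcript Hoxc5-201 overlapped, at 2.30 and 2.02 FPKM in siMEF2A and 2.35 and 1.79 FPKM in scrambled libraries. In the annotation Hoxc5 shares its span with Hoxc6, Hoxc8, Hoxc9 and Hoxc10 on the same strand, and no use of strand was stated. Of the 20 Hox members, 14 overlap another annotated gene, and their values are uncertain to that extent.

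Several Hox sums were carried by transcripts that the annotation does not call protein-coding, although they hold the homeobox stretch. Hoxa10-203, a processed transcript, held 64.1% and 65.8% of Hoxa10 in siMEF2A and 65.1% and 70.3% in scrambled libraries. Hoxa11-202, also a processed transcript, held 98.2% and 97.6% of Hoxa11 in siMEF2A and 96.4% and 95.6% in scrambled libraries. Hoxa11os, an antisense gene, overlaps Hoxa11, and reads from the 2 strands cannot be told apart here. The protein-coding Hoxa11-201 was at 0.284 and 0.406 FPKM in siMEF2A and 0.483 and 0.688 FPKM in scrambled libraries. Each sum covers RNA of the locus, whether it encodes the protein or not.

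The Hox cofactors of the TALE class were all above the minimum, and none was called. Meis2, whose product pairs with Hox and Pbx proteins, was at 22.2 and 27.2 FPKM in siMEF2A and 18.7 and 24.2 FPKM in scrambled libraries. Pbx2 was at 19.4 and 23.3 FPKM in siMEF2A and 21.7 and 21.6 FPKM in scrambled libraries. Both overlapped between the groups.

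Meis3 was at 13.9 and 13.6 FPKM in siMEF2A and 12.6 and 12.3 FPKM in scrambled libraries, higher in both siMEF2A libraries (log2 difference 0.14, limma adjusted p = 1.0). A Meis3 transcript with no GENCODE M21 entry was at 5.18 and 6.68 FPKM in siMEF2A and 4.64 and 4.43 FPKM in scrambled libraries. The Meis3 transcripts with the homeobox stretch overlapped, at 7.33 and 5.57 FPKM in siMEF2A and 6.29 and 6.53 FPKM in scrambled libraries.

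Tgif1 and Tgif2 encode TALE repressors that restrain TGF-beta and retinoic acid signalling. Tgif1 was the highest TALE gene, at 43.2 and 46.3 FPKM in siMEF2A and 44.5 and 45.6 FPKM in scrambled libraries. Its 95% interval for the log2 difference was -0.33 to 0.30. Meis1 averaged 7.85 ± 0.280 FPKM in siMEF2A and 7.82 ± 0.708 FPKM in scrambled libraries (SD, n = 2 each). Tgif2, Pknox1, Pbx3, Pbx4 and Pknox2 had means between 2.70 and 5.30 FPKM, and their groups overlapped. Pknox2 had the lowest difference of all 46 members, at 2.00 and 2.83 FPKM in siMEF2A and 2.77 and 3.18 FPKM in scrambled libraries.

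Six4, a transcription factor of early myogenesis, was at 5.26 and 5.75 FPKM in siMEF2A and 6.33 and 5.94 FPKM in scrambled libraries, lower without overlap (log2 difference -0.13, limma adjusted p = 1.0). Six5 was at 4.64 and 5.38 FPKM in siMEF2A and 4.68 and 4.47 FPKM in scrambled libraries, and its groups overlapped.

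Of the genes for partners of the sine oculis family, 9 were tested and 0 were called. The smallest p was that of Tle1, a Groucho-type corepressor, at 17.8 and 20.4 FPKM in siMEF2A and 13.4 and 15.5 FPKM in scrambled libraries (log2 difference 0.38, limma adjusted p = 0.440). Eya1, a transcriptional coactivator and phosphatase, was at 17.99 and 20.1 FPKM in siMEF2A and 15.4 and 18.4 FPKM in scrambled libraries. The groups of Eya1 overlapped.

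Of the 6 role groups of homeobox genes, the limb and mesenchyme factors had the highest median difference, though none of them was called. The median of the other positional factors, which are no members, was as high. All 9 limb and mesenchyme factors tested had a positive difference, and 7 of the 9 had groups that did not overlap. The median log2 difference of the 9 was 0.21, beside 0.04 over all genes. Prrx1, Prrx2 and Shox2 were among these 7. The 7 of 9 stand beside 18.8% of all genes, and no test was made of the 9 genes together. Msx1 and Irx5 overlapped between the groups. All 9 differences were positive under median-ratio, upper-quartile and quantile scaling, and 13 of 13 were positive with no filter on low values. With transcripts of at least 600 bases, a minimum chosen after the values had been seen, 8 of 9 were positive, 6 of 9 did not overlap and the median log2 difference was 0.17.

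Over the 4 libraries the mean of Prrx2 was the highest of all homeobox genes, 64.4 FPKM beside 63.9 FPKM for Hoxa10. Hoxa10 was the higher of the pair in both scrambled libraries, so their order is not resolved. Prrx2 was at 69.4 and 68.9 FPKM in siMEF2A and 60.3 and 59.3 FPKM in scrambled libraries. Replicates were less than 1 FPKM apart, and the groups did not overlap (log2 difference 0.21, 95% interval -0.11 to 0.53, limma adjusted p = 1.0). Its transcripts with the homeobox stretch summed to 40.4 and 41.3 FPKM in siMEF2A and 30.8 and 32.1 FPKM in scrambled libraries. The retained-intron transcript Prrx2-203, which lacks the stretch, was at 27.6 and 25.4 FPKM in siMEF2A and 26.2 and 25.2 FPKM in scrambled libraries, and it overlapped. The difference in the sum was thus carried by the coding transcripts.

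Prrx1, a marker of limb bud mesenchyme and of fibroblast-like cells, was at 33.1 and 36.998 FPKM in siMEF2A and 23.5 and 28.4 FPKM in scrambled libraries. Its mean was 135% of the scrambled one (log2 difference 0.42, 95% interval 0.11 to 0.74, limma unadjusted p = 0.010, adjusted p = 0.302). All 3 listed transcripts are protein-coding, hold the stretch and were higher in both siMEF2A libraries. Prrx1-202 was at 14.7 and 16.3 FPKM in siMEF2A and 10.1 and 12.1 FPKM in scrambled libraries, Prrx1-201 at 14.2 and 15.7 FPKM in siMEF2A and 10.2 and 12.9 FPKM in scrambled libraries. The fibroblast marker sum, most of it Col3a1, overlapped between the groups. Pdgfra, Dcn and Fap, the last under the minimum for a test, were higher in siMEF2A without overlap. Lum, Col1a1 and Col3a1 overlapped, with log2 differences of -0.23, -0.28 and 0.29. Whether these markers bear on Prrx1 was not tested. Prrx1 passed only when the fit was blocked on the replicate number (limma adjusted p = 0.0211), and over all 16 alternatives its adjusted p ran between 0.0211 and 1.0, always with a positive difference.

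Shox2, a gene of the proximal limb, was at 17.6 and 18.7 FPKM in siMEF2A and 15.0 and 15.1 FPKM in scrambled libraries (log2 difference 0.26, limma adjusted p = 1.0). Its leading transcript Shox2-203 overlapped, at 12.9 and 15.3 FPKM in siMEF2A and 12.4 and 14.0 FPKM in scrambled libraries. A transcript with no GENCODE M21 entry made up much of the remaining difference, at 3.68 and 1.40 FPKM in siMEF2A and 1.33 and 0 FPKM in scrambled libraries.

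Irx2, an Iroquois gene known from heart, neural and limb patterning, had the smallest p of the homeobox genes. It was at 1.97 and 2.44 FPKM in siMEF2A and 1.08 and 1.38 FPKM in scrambled libraries, 180% of the scrambled mean. The groups did not overlap (log2 difference 0.52, SE 0.15, 95% interval 0.22 to 0.83), and the limma adjusted p was 0.0694. It passed with robust moderation (limma adjusted p = 0.0197), with a block on the replicate number (0.0116) and without siMEF2A replicate 1 (0.0270), within a range of 0.0116 to 1.0 over its 15 alternatives.

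The Irx2 difference lay in its short transcripts. The full-length Irx2-201, of 2625 bases, was at 0.559 and 0.676 FPKM in siMEF2A and 0.598 and 0.677 FPKM in scrambled libraries. The retained-intron Irx2-202, of 927 bases, was at 0.543 and 0.515 FPKM in siMEF2A and 0.480 and 0.540 FPKM in scrambled libraries. Both overlapped between the groups.

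Irx2-203, of 449 bases, was at 0.788 and 0.392 FPKM in siMEF2A and 1e-05 and 0.00031 FPKM in scrambled libraries. Irx2-205, of 559 bases, was at 0.0838 and 0.859 FPKM in siMEF2A and 0 and 0.162 FPKM in scrambled libraries. The first was close to 0 in both scrambled libraries, and the second overlapped between the groups. Irx2-203 begins at an exon of its own, at chr13:72629825-72629963 (mm10, plus strand), and then shares most of the second exon of Irx2-201. With only transcripts of at least 600 bases, a minimum chosen after these values were seen, the Irx2 difference was -0.0005 and the limma adjusted p was 1.0.

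**Figure D3:**
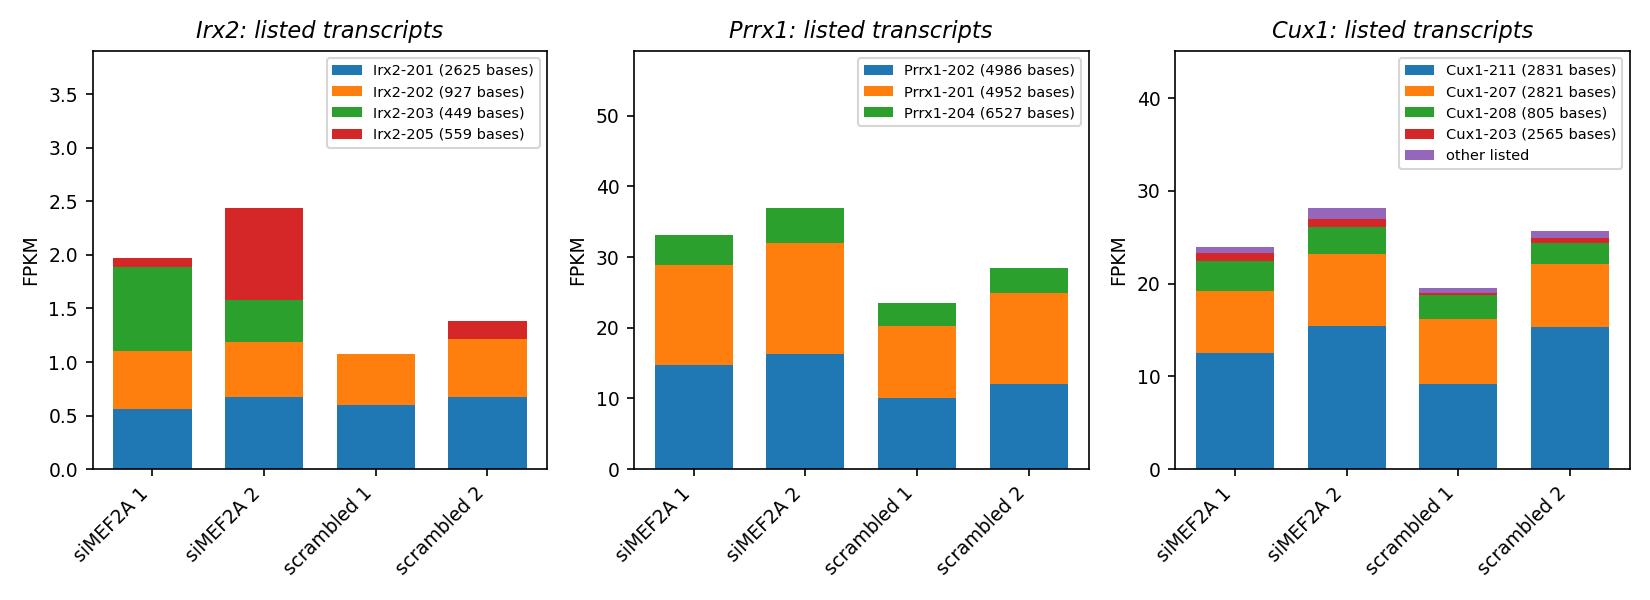
FPKM of each listed transcript, stacked by gene, in the 2 siMEF2A libraries and then the 2 scrambled libraries. In Irx2 the transcripts of 449 and 559 bases make up the difference between the groups, Prrx1 is higher in siMEF2A in all of its transcripts, and Cux1 overlaps between the groups.

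The low members of the group are given by level. Irx3 was at 1.15 and 1.44 FPKM in siMEF2A and 1.06 and 1.01 FPKM in scrambled libraries, Irx5 at 1.72 and 2.28 FPKM in siMEF2A and 1.596 and 1.81 FPKM in scrambled libraries. Lhx6 and Msx1 had means of 1.84 and 1.03 FPKM. Dlx2, Dlx3, Lhx9 and Pitx3 had means between 0.220 and 0.839 FPKM and were not tested.

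The zinc finger homeobox genes were led by Zeb1 and Zeb2, repressors known from epithelial-mesenchymal transition. Zeb1 was at 29.6 and 33.3 FPKM in siMEF2A and 31.0 and 32.0 FPKM in scrambled libraries. Zeb2 was at 13.2 and 17.0 FPKM in siMEF2A and 14.5 and 15.5 FPKM in scrambled libraries. In both genes the siMEF2A values lay on either side of the scrambled ones, and both log2 differences were -0.01 (limma adjusted p = 1.0 each). Of 8 genes of the Zeb circuit and of epithelial-mesenchymal transition tested, 0 were called. The difference was positive in 7 of the 8 (63.9% of all genes), and 2 were higher without overlap (18.8% of all genes). Cdh2, the gene of N-cadherin, had the only negative difference, and its groups overlapped. It was at 15.1 and 22.1 FPKM in siMEF2A and 18.2 and 27.2 FPKM in scrambled libraries.

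Tshz3 averaged 8.32 ± 1.54 FPKM in siMEF2A and 8.38 ± 0.529 FPKM in scrambled libraries (SD, n = 2 each). Tshz1, its relative, was at 3.77 and 4.57 FPKM in siMEF2A and 3.26 and 3.59 FPKM in scrambled libraries, without overlap (limma adjusted p = 1.0). Zfhx4 was at 3.63 and 4.997 FPKM in siMEF2A and 3.22 and 3.70 FPKM in scrambled libraries. Zfhx2 was lower without overlap, at 1.09 and 1.10 FPKM in siMEF2A and 1.39 and 1.27 FPKM in scrambled libraries (log2 difference -0.15, limma adjusted p = 1.0). Zfhx3 had a mean of 0.724 FPKM and was not tested.

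Cux1 encodes a repressor with several DNA-binding repeats besides its homeodomain. It was at 23.997 and 28.2 FPKM in siMEF2A and 19.6 and 25.6 FPKM in scrambled libraries, with overlap. Only 3.01% and 3.15% of it in siMEF2A and 3.06% and 2.85% in scrambled libraries lay in transcripts with the homeobox stretch. Most of what is listed as Cux1 therefore came from transcripts without it. Across the 51 members with a stretch, 33 held it in every listed transcript.

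Genes that act on or beside the homeobox genes were described by the same counts. Of 32 Polycomb and trithorax regulators tested, which keep Hox clusters silent or active, 0 were called, 6 were higher without overlap and 0 lower. The 6 are 18.75% of the list, close to the 18.8% of all genes that were higher without overlap, and 9.14% of all genes were lower. Ash2l, a subunit of H3K4 methyltransferase complexes, was at 10.3 and 12.8 FPKM in siMEF2A and 8.26 and 9.56 FPKM in scrambled libraries (log2 difference 0.34, limma adjusted p = 0.658). Of 17 genes of BMP and TGF-beta feedback tested, 0 were called. The difference was positive in 14 of the 17, where it was so in 63.9% of all genes. Without overlap, 4 were higher and 1, Id2, was lower, beside 18.8% and 9.14% of all genes. Id2 was at 18.8 and 18.3 FPKM in siMEF2A and 23.7 and 21.2 FPKM in scrambled libraries. Id3, higher without overlap, was at 91.6 and 86.1 FPKM in siMEF2A and 72.4 and 74.7 FPKM in scrambled libraries.

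Retinoic acid sets Hox borders in the embryo. Dhrs3, a retinaldehyde reductase of its pathway, was at 13.3 and 15.5 FPKM in siMEF2A and 9.94 and 11.8 FPKM in scrambled libraries (limma adjusted p = 0.458).

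Of 13 other positional transcription factors tested, 0 were called, where 1.73% of all genes were. Of the 13, 12 had a positive difference (63.9% of all genes), 8 were higher without overlap (18.8% of all genes) and 1, Tbx15, was lower without overlap (9.14% of all genes). Their median log2 difference was 0.21, and they were not tested together. Twist2, a factor of dermal and mesenchymal cells, was at 9.94 and 8.73 FPKM in siMEF2A and 6.60 and 7.47 FPKM in scrambled libraries (log2 difference 0.36, limma adjusted p = 0.487). Foxc1 was at 5.50 and 6.06 FPKM in siMEF2A and 4.23 and 4.59 FPKM in scrambled libraries (limma adjusted p = 0.658). Of 15 other homeobox genes tested, 0 were called and 0 were higher without overlap.

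**Figure D4:**
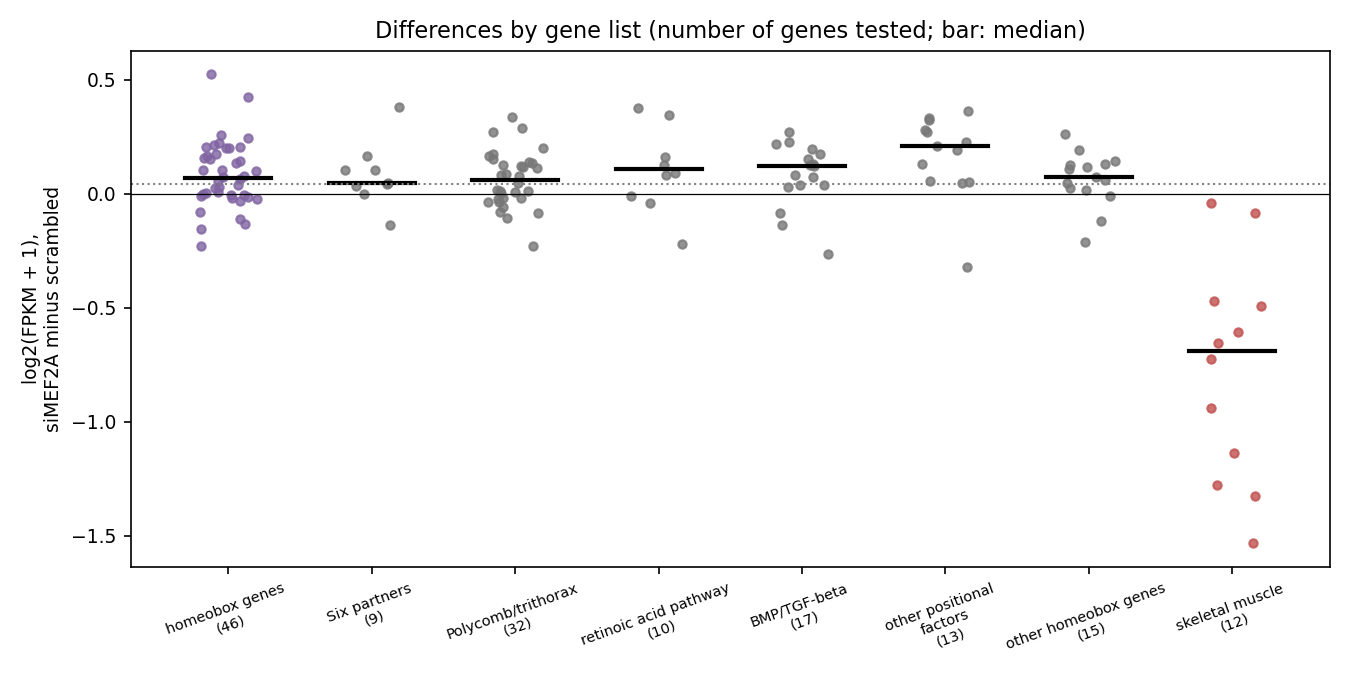
Log2(FPKM + 1) difference, siMEF2A minus scrambled, of tested genes by list, a few not shown, with a bar at the median of all genes tested in each list and a dotted line at 0.04, the median of all genes tested. The 46 homeobox genes have a median of 0.07 and the other positional factors one of 0.21, while the skeletal muscle markers lie below 0.

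Promoters of 34 members were found in the RefSeq table (GRCm38.p6), in windows of 300 bases around the gene start. The MEF2 consensus was present in 0 of their 45 promoters, where 3.19% of 32851 promoters held it. The letters of the MEF3 motif, TCAGGTT, known to be bound by Six4 and sought on both strands, were present in 1 of the 45, that of Six4, where 4.07% of all promoters held them. A missing match says only that those letters are not in that window. The search was chosen after the values had been seen.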

How the data were processed

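The authors deposited FPKM per Ensembl transcript in each library, beside the gene's symbol and position, per the file headers. TopHat, Bowtie, Cufflinks, Trimmomatic and CASAVA, all without versions, and the build mm10 are named in the submitters' processing notes. Not given in the sources used here are the annotation, tool settings, scaling between libraries, the rule for listing transcripts, strand use and the handling of reads shared by near-identical genes. The libraries each listed 36231 transcripts, of which 35238 were found in GENCODE M21 (same build) for lengths, types and exons.

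FPKM were summed per symbol, 26 small RNA symbols were left out and a mean of at least 1 FPKM was required. Groups of 2 libraries were compared as log2(FPKM + 1) with limma 3.58.1 in R 4.3.3 (intensity trend, two-sided, Benjamini-Hochberg adjustment over 11824 genes). The fit had 2 residual and 29.0 prior degrees of freedom, so each p rests mostly on a spread pooled over genes. Unless another fit is named, each adjusted p is from this one. It was tested on simulated data, and the outcome is not given here.

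Relative depth is the commonest ratio of low values between libraries, shared by 11 to 17 of 600 genes, and assumes that no further scaling entered the FPKM. No counting interval could be given. Summing FPKM of overlapping loci can count reads of a neighbour.

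The homeobox members, the lists and the alternatives were chosen with earlier results of these data known. Named were Mef2a, members with an unadjusted p under 0.05, the members of highest level in each role group, every listed Hox gene, members under the minimum by level, and in each list the called genes and up to 2 of smallest p. Further genes (Myog, En1, Isl1, Tbx15, Osr1, Rdh10 and members singled out because their groups did not overlap) were named after their values were seen. Results of some genes that the rule names, 1 called gene among them, are not reported here. Alternatives were other scalings, pseudocounts, filters, moderation, a replicate block and leaving out each library.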

Additional observations from a re-analysis of the deposited data

How the results depend on the processing

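The count of homeobox genes called higher was 0 in the limma fit reported, 1 with robust moderation (Irx2) and 2 with the replicate block (Irx2 and Prrx1). Leaving out 1 library at a time gave 0 to 1, the 1 being Irx2 without siMEF2A replicate 1. It was 0 under each other alternative run, and the count called lower was 0 under all. The median log2 difference of the homeobox genes ran between 0.02 and 0.12. The labels do not say that equal replicate numbers pair libraries, and with 2 pairs the data cannot decide it. The changes between replicates 1 and 2 correlated across all genes tested at a Pearson r of 0.292 between the groups and at 0.455 across the homeobox genes. Genes are not independent replicates, and the deviations followed transcript length in both groups (Spearman rho 0.535 in siMEF2A, 0.400 in scrambled). The block also brought Tle1 (limma adjusted p = 0.0274), Ash2l (0.0458) and Dhrs3 (0.0256) past the threshold.

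Over all genes, 48 were called higher and 156 lower. These counts were 13 and 131 with median-ratio scaling, 14 and 132 with upper-quartile scaling, 11 and 107 with quantile normalization, 23 and 140 with small RNA symbols kept, and 24 and 134 without the trend. They were 28 and 146 at a pseudocount of 0.1, 29 and 153 with no filter, 35 and 99 at a minimum of 5 FPKM, 73 and 173 with robust moderation, and 217 and 291 with the block. With transcripts of at least 600 bases they were 72 and 171, and without scrambled replicate 2 they were 74 and 153. The median of all genes shifted by less than 0.1 on the log2 scale under each scaling. Across 877 values of 56 named genes, 865 stayed on their side of the threshold, 7 passed and 5 lost it. Besides leaving out libraries, the Myog call was lost with quantile normalization (limma adjusted p = 0.0922) and with no filter (0.0565); the cause was not tested. The absolute depth is unknown, so what it limits could not be computed.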

Other observations

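Values of homeobox genes outside the families described above add to the picture of the line. En1, a gene of dorsal-ventral limb and brain patterning, was at 3.14 and 3.89 FPKM in siMEF2A and 2.69 and 3.21 FPKM in scrambled libraries. Isl1, a gene of cardiac and motor neuron precursors, was at 4.78 and 5.002 FPKM in siMEF2A and 3.88 and 4.80 FPKM in scrambled libraries. Isl2 was at 2.28 and 2.14 FPKM in siMEF2A and 2.73 and 2.71 FPKM in scrambled libraries, lower without overlap, and Homez was at 2.48 and 3.61 FPKM in siMEF2A and 1.98 and 2.74 FPKM in scrambled libraries. The groups of En1, Isl1 and Homez overlapped, and none of the 4 genes was called (limma adjusted p = 1.0 each).

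Among other positional factors, Tbx15, a T-box gene of limb and trunk muscle, was lower in both siMEF2A libraries, at 8.56 and 9.57 FPKM in siMEF2A and 10.6 and 12.6 FPKM in scrambled libraries (log2 difference -0.32, limma adjusted p = 0.706). Osr1, a gene of limb connective tissue, was at 7.39 and 8.60 FPKM in siMEF2A and 5.38 and 6.97 FPKM in scrambled libraries (log2 difference 0.33, limma adjusted p = 0.705). Rdh10, the retinol dehydrogenase, was at 24.6 and 24.1 FPKM in siMEF2A and 16.7 and 21.4 FPKM in scrambled libraries (log2 difference 0.35, limma adjusted p = 0.621). These genes were picked from their lists after their values were seen.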
